A study of Mus musculus with 1931 samples.

Results

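Otx2, Fgf5, Lef1 and Trh were followed across the cells of Rosette-to-Lumen (RtL) stage mouse embryoids and of the 2D cultures measured beside them. These 4 genes, of 20999 in the table, were chosen by name as genes of formative and primed epiblast, and all 4 have a row. They and the gene lists used below were chosen with earlier results of these data known, so counts of members and listed genes are a description. Embryoids were built by co-culture of 3 mouse embryonic stem cell (ESC) lines. Of these, Kermit ESCs report the Pou5f1 (Oct3/4) promoter by GFP, 5-Factor ESCs carry doxycycline-inducible Cdx2, Tfap2c, Eomes, Gata3 and Ets2, and iGATA6-mCherry ESCs carry doxycycline-inducible Gata6. Doxycycline (2 µg/ml) was given for 3 days and then withdrawn, hand-picked embryoids were pooled and dissociated, and cells were sorted by GFP, mCherry or CD40 into plates 3, 4 and 5 for SMART-seq2, a full-length single-cell RNA-seq method. The 2D cultures were Kermit ESCs in 2i/LIF sorted by GFP, which carry neither inducible transgene set, iTSCs derived from the 5-Factor line and iXEN cells derived from the iGATA6-mCherry line, as trophoblast and extraembryonic endoderm counterparts. The iTSCs, in medium with FGF4 and heparin, and the iXEN cells were also given 2 µg/ml doxycycline for 3 days, which was then withdrawn. No doxycycline is described for the 2D ESCs. 2i/LIF medium holds an inhibitor of MEK, the kinase upstream of ERK, and an inhibitor of GSK3, which raises Wnt/β-catenin activity.

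In the mouse embryo the epiblast leaves naive pluripotency around implantation, passes through a formative state in which it can respond to differentiation signals, and becomes primed before gastrulation. OTX2, a homeobox transcription factor, acts early in this course and is also a factor of the anterior visceral endoderm. LEF1 is an HMG-box factor that binds β-catenin and carries Wnt signals to target genes. FGF5 is a secreted ligand of FGF receptors and the classical marker of post-implantation epiblast. Trh encodes the precursor of thyrotropin-releasing hormone, a peptide best known from the hypothalamus.

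Levels were calculated as TP10k, that is TPM scaled so that the genes of a cell sum to 10000, and were averaged over all cells of a group with zeros included. A well was retained when 2500 genes or more had a value above 0, which left 1406 cells of 1931 wells. Of 982 cells from the 3D pool, 32% came from well columns 1-8, 32.1% from columns 9-16 and 35.9% from columns 17-24. Of 424 cells from 2D cultures, 33.5% were ESCs, 33.3% iTSCs and 33.3% iXEN cells. The labels do not state which sorted population filled which columns, so the columns were checked against markers. All 7 epiblast (Epi) markers, among them Pou5f1 and Tdgf1, were highest in wells 1-8, all 6 visceral endoderm (VE) markers in wells 9-16 and all 7 extraembryonic ectoderm (ExE) markers in wells 17-24. The wells are called Epi, VE and ExE wells below. In 0 cells of the Epi wells did the VE or ExE list sum higher than the Epi list, while another list than the wells' own was highest in 11.7% of cells of the VE wells and 35.1% of the ExE wells. The summed markers of fibroblasts, a feeder-like cell type, stood at 0.0468 TP10k in the Epi wells, and those of the neural list at 0.0585. The 3D cells are 1 pool split over 3 plates and each 2D culture is 1 sample, so no test between conditions could be made. Values by plate show the technical spread within the pool, and intervals are exact 95% binomial intervals that cover counting error only. A median of 4823 genes was detected per cell in the Epi wells against 9093.5 in ESCs, TPM keep no read depth, and shares of cells with a gene therefore cannot be ordered between 3D and 2D. Culture form, medium and plate change together between 3D and 2D and cannot be told apart. Between Epi wells and ESCs doxycycline in the culture changes with them.

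The sequences before the members' furthest upstream RefSeq starts are shown because the genes were high in the same wells. The 250 bases 5′ of the furthest upstream start listed for each gene were taken from a RefSeq table (GRCm38.p6). The search covered both strands for an OTX word (TAATCC), TCF/LEF words (CTTTGNN with A or T at each N), the POU octamer (ATGCAAAT) and the TATA word (TATAAA), and matches are in capitals.
Otx2, chr14:48667645-48667894, minus strand: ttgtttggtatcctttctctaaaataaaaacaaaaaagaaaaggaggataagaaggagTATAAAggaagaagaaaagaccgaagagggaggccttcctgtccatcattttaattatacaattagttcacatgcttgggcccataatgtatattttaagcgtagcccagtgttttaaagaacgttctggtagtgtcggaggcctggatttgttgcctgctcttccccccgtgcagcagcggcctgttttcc
Lef1, chr3:131110047-131110296, plus strand: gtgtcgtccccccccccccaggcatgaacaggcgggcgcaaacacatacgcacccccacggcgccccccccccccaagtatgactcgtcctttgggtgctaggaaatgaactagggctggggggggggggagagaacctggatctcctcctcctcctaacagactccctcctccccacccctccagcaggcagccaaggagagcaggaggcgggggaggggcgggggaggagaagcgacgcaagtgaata
Fgf5, chr5:98253934-98254183, plus strand: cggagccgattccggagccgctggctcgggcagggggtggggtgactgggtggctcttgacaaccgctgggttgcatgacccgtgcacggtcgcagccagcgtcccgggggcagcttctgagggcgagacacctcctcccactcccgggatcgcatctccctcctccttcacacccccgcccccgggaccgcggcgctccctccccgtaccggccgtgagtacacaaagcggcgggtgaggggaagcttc
Trh, chr6:92244651-92244900, minus strand: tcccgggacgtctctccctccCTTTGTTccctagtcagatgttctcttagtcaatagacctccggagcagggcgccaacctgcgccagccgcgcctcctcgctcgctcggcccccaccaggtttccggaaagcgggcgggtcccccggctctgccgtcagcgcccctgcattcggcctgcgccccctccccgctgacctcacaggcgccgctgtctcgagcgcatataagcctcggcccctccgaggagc
The Otx2 window held the TATA word, and the Trh window held a TCF/LEF word on its own strand. The Lef1 and Fgf5 windows shown held none of these words. Such words are common, since 14.8% of all 32851 promoter windows of this length hold a TCF/LEF word, 12.4% the TATA word, 6.25% the OTX word and 1.6% the octamer. The windows of Fgf5, Trh and Lef1 were GC-rich at 70.8%, 68.8% and 66.4%, and that of Otx2 was 42% GC, against a median of 52.4% over all windows. The table gives 4 starts for Otx2 and 4 for Lef1, and the TPM do not tell which of them was used. Before the other starts, the Otx2 window at chr14:48665110-48665359 held the OTX word on the opposite strand. The Lef1 window at chr3:131156044-131156293 held the TATA word and a TCF/LEF word, both on the opposite strand.

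All 4 members were higher in the Epi wells than in either other 3D compartment, and Trh was the most abundant of them. Calls were made for a ratio of means of at least 2 in the same direction on plates 3, 4 and 5, among genes above 0 in at least 10% of cells of either group. Against the VE wells 4 of 4 members were called higher, where 16.3% of 10662 genes were. Against the ExE wells it was again 4 of 4, where 8.98% of 10886 genes were called higher. These counts are a description, since Otx2, Lef1 and Trh reached 10% of cells in the Epi but not in the VE wells and all 4 members in the Epi but not in the ExE wells, so the filter itself favoured a higher value there. The call of Otx2 against the VE wells rests on 1 cell with Otx2 there, and that of Trh against the ExE wells on 3 cells. Against ESCs 3 of 4 members were called higher, all but Otx2, with 11.1% of 13109 genes called higher and 9.21% called lower. Lef1 reached 10% of cells in ESCs as well as in the Epi wells, as Otx2 and Trh did, whereas Fgf5 entered that comparison through the Epi wells alone.

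**Figure D1:**
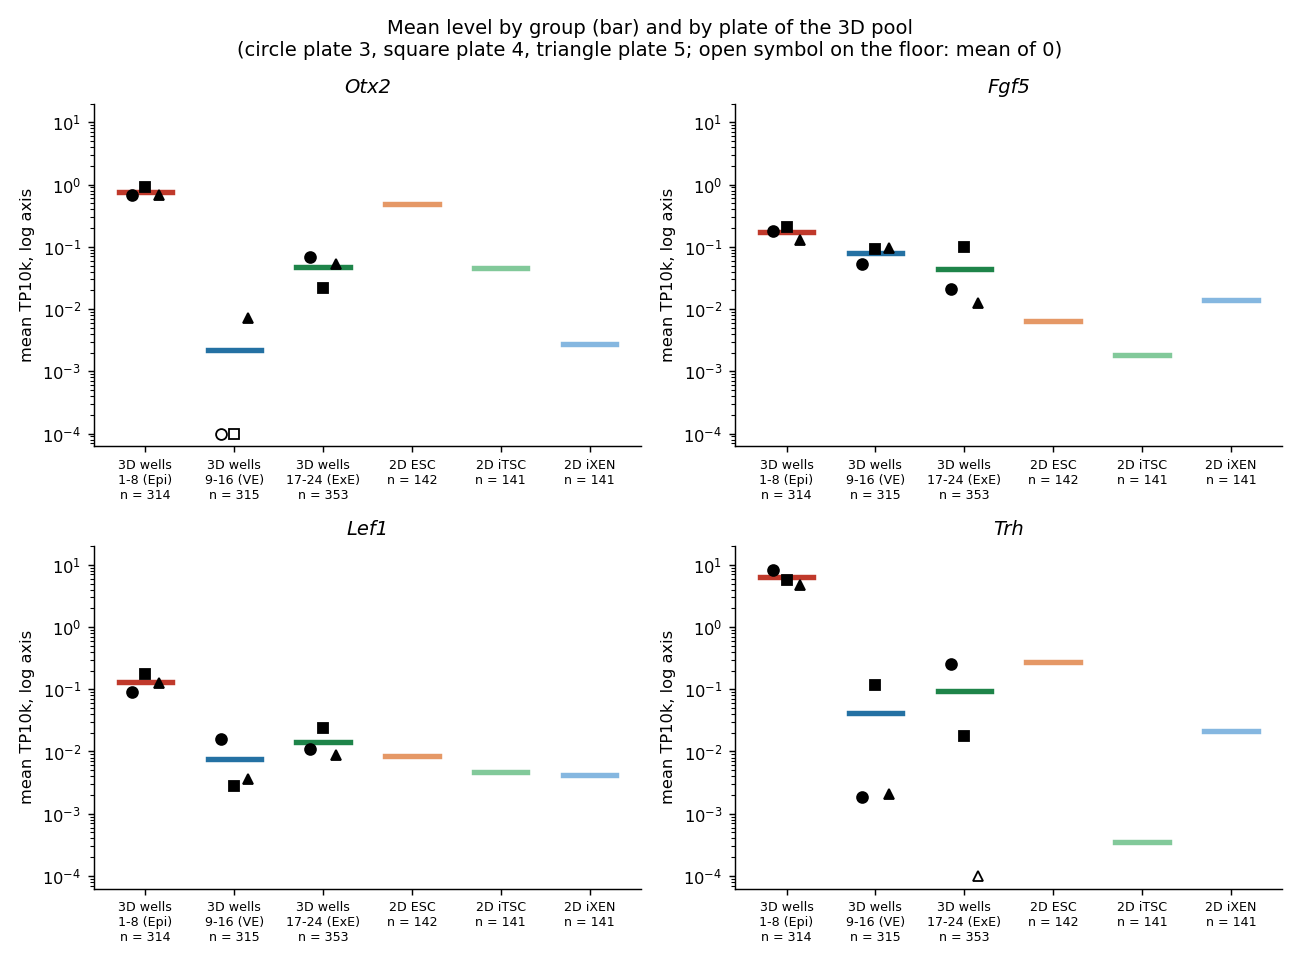
Mean TP10k (log axis) of the 4 genes in the 3D wells and 2D cultures, with bars for the group mean and symbols for the means on plates 3, 4 and 5, and open symbols for a mean of 0; n is the number of cells. The Epi wells hold the highest bar in each panel, and Trh there lies between 4.77 and 8.37 by plate.

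Otx2, the transcription factor of the set, averaged 0.759 TP10k in the Epi wells, with 0.684, 0.907 and 0.682 on plates 3, 4 and 5. It was above 0 in 53.5% of cells (95% interval 47.8 to 59.1), and the quartiles of these cells were 0.560, 1.09 and 1.81 TP10k. ESCs averaged 0.492 TP10k, below each of the Epi plates, and Otx2 was found in 88.7% of ESCs (82.3 to 93.4). The ESCs with Otx2 had a lower median of 0.417 TP10k. The ratio of means was 1.54 (log2 0.63, and 0.48, 0.88 and 0.47 by plate), short of the call, and the difference of mean log2(TP10k + 0.1) had the opposite sign at -0.20. No order of Otx2 between Epi wells and ESCs is read from these values.

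Outside these groups Otx2 was rare. It was above 0 in 1 cell of the VE wells, 0.317% (0.00804 to 1.76), although OTX2 is a factor of anterior visceral endoderm. Among the genes listed with it there, Lhx1 averaged 0.0313 TP10k in the VE wells, Hhex 0.307, Dkk1 0.653, Lefty1 0.237 and Cer1 0.00265. The ExE wells held 19 cells with Otx2, 5.38% (3.27 to 8.28), with means of 0.0681, 0.0219 and 0.0536 on the 3 plates, and iTSCs at 0.0464 lay within that range. Of the iXEN cells 2 held Otx2. Of the paralogs, Otx1 was at 0 in all cells of the Epi wells, which by a floor of 3 cells allows a share of up to 0.955%, and Crx averaged 0.00542 TP10k.

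**Figure D2:**
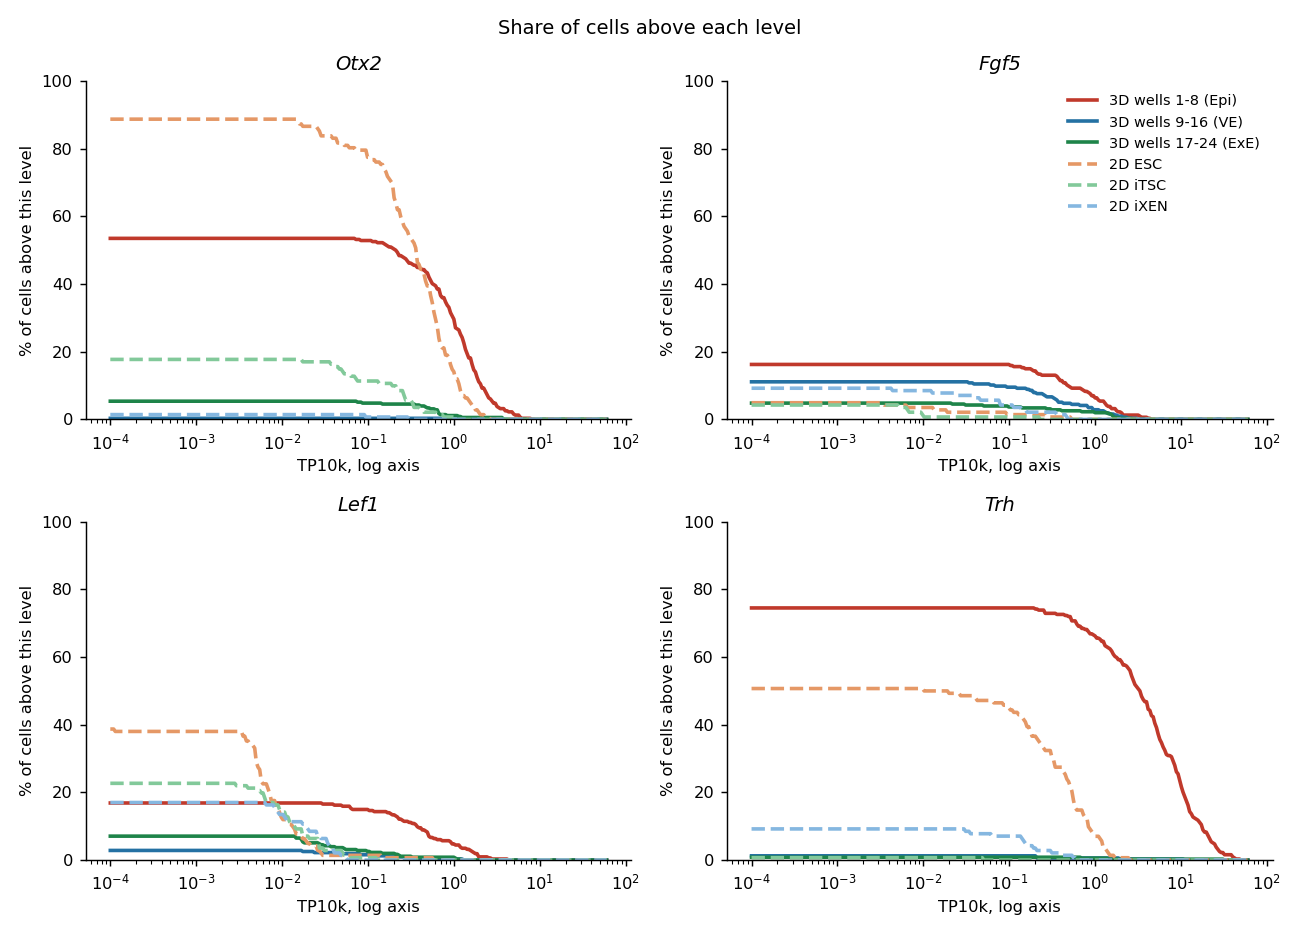
Percent of cells of each group whose level exceeds the value on the x axis (TP10k, log axis), with solid lines for 3D wells and dashed lines for 2D cultures. For Otx2 the ESC curve starts at 88.7% and that of the Epi wells at 53.5%, and the curves cross, while for Trh the Epi wells lie above all other groups.

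Lef1, the Wnt effector, averaged 0.131 TP10k in the Epi wells, with 0.0900, 0.175 and 0.124 on plates 3, 4 and 5. It was found in 56 cells, 17.8% (13.8 to 22.5), whose median was 0.441 TP10k. In ESCs the share was 38.7% (30.7 to 47.3), and the median of the ESCs with Lef1 was 0.00717 TP10k, or 0.435 TPM. At a cut-off of 10 TPM the share was 14% (10.4 to 18.4) in the Epi wells and 0.704% (0.0178 to 3.86) in ESCs. The mean in ESCs was 0.00857 TP10k, a ratio of 15.3 (log2 3.93, and 3.39, 4.36 and 3.86 by plate). The ExE wells averaged 0.0145 TP10k (0.00894 to 0.0236 by plate) and the VE wells 0.00761 (0.00278 to 0.0158), and these ranges overlapped each other and held the ESC mean or came next to it. The remaining cultures were lower still, iTSCs at 0.00471 and iXEN cells at 0.00425 TP10k.

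The other factors of the pathway were compared with ESCs as well. Of Tcf7, Tcf7l1, Tcf7l2 and Ctnnb1, which encodes β-catenin, 4 of 4 were measured in the comparison with ESCs and 0 were called in either direction. Over all genes tested there 11.1% were called higher and 9.21% lower, so 0 calls among 4 genes are no result about them. Tcf7l1, a repressor of the family, averaged 0.571 TP10k in the Epi wells and 0.668 in ESCs. Of 9 Wnt target genes, 5 entered the comparison with ESCs, where 0 were called higher and 2 lower. Those were Notum, a secreted Wnt inhibitor, at 0.0414 against 0.266 TP10k, and Cdx1 at 0.00995 against 0.0435. Axin2, a feedback inhibitor of the pathway, averaged 0.0234 against 0.0124 TP10k and was short of the call. With 5 Wnt targets entered, these counts are a description only.

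Fgf5, the secreted ligand, averaged 0.172 TP10k in the Epi wells, with 0.178, 0.210 and 0.127 on plates 3, 4 and 5. It was above 0 in 51 cells, 16.2% (12.3 to 20.8), with a median of 0.823 TP10k among them. Of the ESCs 7 held Fgf5, 4.93% (2.00 to 9.89), at a median of 0.0190 TP10k. The ESC mean was 0.00654 TP10k, 26.3-fold lower (log2 ratio 4.71, and 4.76, 5.00 and 4.28 by plate). Among cells with 6000 to 9000 genes the share was 27.3% of 33 Epi cells (13.3 to 45.5) and 4.92% of 61 ESCs (1.03 to 13.7), although the ESCs in that window still had more genes, a median of 8678 against 6321.

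In the VE wells Fgf5 had the highest mean and the highest share of cells of the 4 members. Its mean there was 0.0799 TP10k (0.0536, 0.0927 and 0.0958 on the 3 plates), with Fgf5 in 35 cells, 11.1% (7.86 to 15.1), an interval that overlaps that of the Epi wells. The ratio of Epi to VE wells was 2.15, and by plate its log2 ran from 0.41 to 1.73. Of these 35 cells, 32 (91.4%) had the VE list as their highest marker sum, 3 the Epi list, 1 held Tdgf1 and 0 held Otx2 or Trh. The VE list was highest in 87.9% of the cells of the VE wells without Fgf5. Among those, 2 held Tdgf1, 1 Otx2 and 4 Trh. Pou5f1, an Epi marker, was above 0 in 29 of the 35 cells, and also in most cells of the VE wells without Fgf5. These counts therefore do not set the cells with Fgf5 apart from the others of the VE wells. The median marker sums of the 35 cells were 5.12 TP10k for the Epi list and 15.6 for the VE list, beside 6.11 and 13.3 in cells of the VE wells without Fgf5. In the ExE wells Fgf5 averaged 0.0437 TP10k (0.0126 to 0.0977 by plate), in 17 cells. Of those 17 cells 12 had the VE list highest and 3 the ExE list. Without the cells whose markers went against their wells, 3 cells of the ExE wells held Fgf5, and the log2 ratio of Epi to ExE wells that rests on them was 7.80 instead of 1.98. The Fgf5 of the VE and ExE wells therefore sat mostly in cells with VE markers. In 2D, iXEN cells averaged 0.0140 TP10k with Fgf5 in 13 cells, and iTSCs 0.00186 with Fgf5 in 6 cells.

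The other FGF genes differed among themselves. Fgf4, an early epiblast ligand, was at 1.12 TP10k in the Epi wells and 1.37 in ESCs, whereas Fgf15 was at 0.608 against 0.0180. Fgf8, a ligand of the primitive streak, was above 0 in 0.955% of Epi cells. Of the receptors, Fgfr1 averaged 0.557 TP10k in the Epi wells, beside 0.945 in the ExE wells and 0.0387 in the VE wells. Fgfr2, at 0.0853 in the Epi wells, was lower than in the VE (0.430) and ExE wells (0.770). Of 8 genes that respond to ERK activity, 7 were called higher than in ESCs and 0 lower, where 11.1% and 9.21% of all genes tested were. Spry4 was at 0.193 against 0.00519 TP10k, Dusp4 at 0.179 against 0.0114 and Dusp6 at 0.933 against 0.141, while Etv5, lower by a log2 ratio of -0.83, was not called. Over all genes tested against ESCs the median log2 ratio was 0.12, and over these 8 it was 2.58. Against the ExE wells the median over the tested genes of this list was 0.18, beside -0.099 over all genes. Against iTSCs it was -0.25, beside -0.058, against the VE wells 1.03, beside 0.066, and against iXEN cells 1.33, beside 0.12. Dusp4 averaged more than in the Epi wells in the ExE (0.499) and VE wells (0.242), iTSCs (0.231) and iXEN cells (0.476).

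Trh averaged 6.26 TP10k in the Epi wells, with 8.37, 5.74 and 4.77 on plates 3, 4 and 5, above Otx2, the next of the 4 on this per-length scale, on each plate. It was found in 74.5% of cells (69.3 to 79.2), and all of these were at 10 TPM or above. Their lower and upper quartiles were 2.56 and 11.2 TP10k, and the highest cell reached 48.7. The 31 highest cells held 41.4% of the summed Trh of the Epi wells, the lowest such share of the 4 members. The share was 45.3% for Otx2, 89.1% for Fgf5 and 90% for Lef1, so the Fgf5 and Lef1 means rest on few cells. ESCs averaged 0.272 TP10k, with Trh in 72 cells, 50.7% (42.2 to 59.2), at a median of 0.446. The ratio of means was 23 (log2 4.53, and 4.94, 4.40 and 4.13 by plate), and each Epi plate lay far above the ESC mean.

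In the other 3D wells Trh was nearly absent. The VE wells held it in 4 cells (1.27%, 0.347 to 3.22) and the ExE wells in 3 (0.850%, 0.176 to 2.46). These few cells set the means of 0.0410 and 0.0954 TP10k, the latter with 1 cell at 31.6, so no ratio to the ExE wells is given. Of the 4 cells in the VE wells, 2 had the Epi list as their highest marker sum. Leaving out the cells that went against their wells moved the log2 ratio of Epi to VE wells from 7.25 to 12.1, and leaving out plate 4 moved it to 11.7, each with 2 cells with Trh remaining in the VE wells. Among 2D cultures, 13 iXEN cells (9.22%) and 1 iTSC held Trh.

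Genes that mature or receive the TRH peptide were listed as well. Pcsk1 and Pcsk2, prohormone convertases, averaged 0.0203 and 0.00735 TP10k in the Epi wells, and Pam, which amidates the peptide, 0.141. The receptor gene Trhr was found in 0.637% of Epi cells, and Trhr2 in 0 cells, which by the same floor allows up to 0.955%. Of 9 genes in this list 6 entered the comparison with ESCs, with 0 called higher and 1 lower. Over all genes tested there 11.1% were called higher and 9.21% lower, so counts from 6 genes are no result about this list. The gene called lower was Qpct, a glutaminyl cyclase, at 0.0457 against 0.0916 TP10k.

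Beside the members, 20 further formative and primed genes were listed, of which 19 have a row and 18 entered the comparison with ESCs. There 10 were called higher and 1 lower, where 11.1% of all genes tested were called higher and 9.21% lower. Their median log2 ratio was 1.12, beside 0.12 over all genes tested. Dnmt3a, a de novo DNA methyltransferase, was at 3.29 against 0.491 TP10k, Grhl2, an epithelial transcription factor, at 0.170 against 0.0222, Utf1 at 7.88 against 2.53 and Dnmt3b at 1.10 against 0.476. The gene called lower was Foxd3, at 0.0244 against 0.0652. Of 12 naive genes 6 were called lower and 1 higher, with a median log2 ratio of -0.95, beside the same shares and median over all genes. Klf4, Tfcp2l1 and Prdm14, transcription factors of the naive state, stood at 0.138, 0.254 and 0.114 TP10k against 0.884, 1.15 and 0.455 in ESCs. The gene called higher was Dppa3, at 1.96 against 0.341. Genes of the primitive streak were almost absent, with T in 2 Epi cells and 0 of 10 listed genes reaching 10% of these cells. Of these 10 genes 3 entered the comparison with ESCs, where 2 were called lower and 1 higher, beside the same shares over all genes. The gene called higher was Eomes, at 0.0333 against 0.0122 TP10k, and counts from 3 genes are no result about this list.

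**Figure D3:**
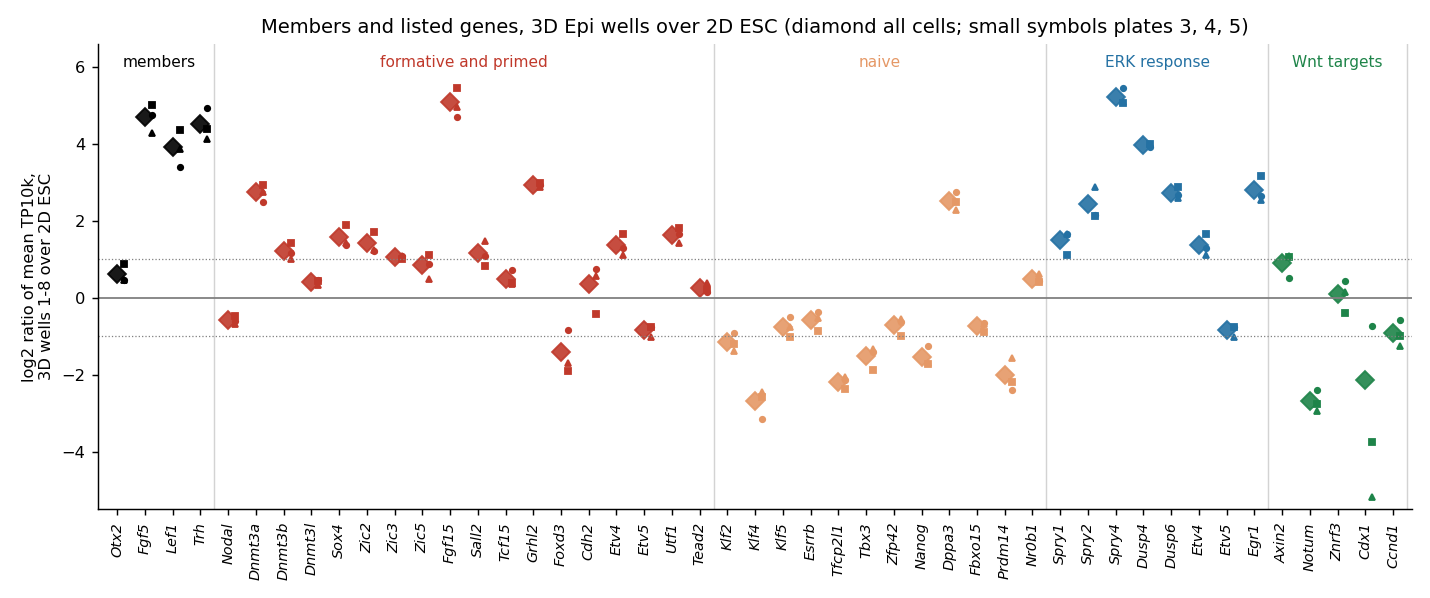
Log2 ratio of mean TP10k in the 3D Epi wells over 2D ESCs for the members and for listed genes that entered the comparison, with diamonds for all cells and small symbols for plates 3, 4 and 5; dotted lines mark 2-fold. Fgf5, Lef1 and Trh lie near 4 to 5, Otx2 below 1, most ERK response genes above 1 and most naive genes below 0.

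Within the Epi wells the members were spread unevenly over cells. None of them was found in 45 cells, 1 in 32.5% of cells, 2 in 33.4%, 3 in 51 cells and all 4 in 11 cells. From the shares on each plate alone, 26 cells with none and 3.72 with all 4 would be calculated. The commonest combinations were Otx2 with Trh alone, in 85 cells, and Trh by itself, in 79. Cells with more members also had more genes detected, with a median of 4152 genes in cells with none and 5633 in cells with all 4, so pairs were also compared within plates and within 3 equal classes of genes detected. The classes were cut over all Epi cells, and plate 3 had a median of 5710 genes against 4448 and 4199 on plates 4 and 5. Class and plate therefore overlap and are not separate checks.

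Fgf5 and Lef1 were found together in 17 cells, where the product of their shares within plates gives 9.14, a ratio of 1.86 (1.87, 1.97 and 1.68 on plates 3, 4 and 5). Lef1 was above 0 in 33.3% of the 51 cells with Fgf5 (20.8 to 47.9) and in 14.8% of those without (10.8 to 19.7). In the class with most genes the ratio was 1.51 and in the middle class 1.98, but in the class with fewest genes no cell held both, where 0.56 were calculated. Otx2 and Fgf5 shared 41 cells against 27.6 calculated, a ratio of 1.49 (1.43, 1.34 and 1.82 by plate). Fgf5 was above 0 in 24.4% of cells with Otx2 (18.1 to 31.6) and in 6.85% of cells without it (3.33 to 12.2), so 80.4% of cells with Fgf5 also held Otx2. This ratio was above 1 in each class of genes detected, at 1.79, 1.21 and 1.41. Otx2 and Lef1 shared 42 cells against 30.1, a ratio of 1.40, above 1 on each plate and at 0.97, 1.25 and 1.49 from the class with fewest to the class with most genes.

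The pairs of Trh had ratios from 1.03 to 1.12. With Otx2 the ratio was 1.12 over all cells and 1.24, 0.98 and 1.15 from the class with fewest to the class with most genes, and Trh was found in 83.9% of cells with Otx2 (77.5 to 89.1) and 63.7% of cells without (55.3 to 71.5). With Fgf5 the ratio was 1.05 (1.15, 1.02 and 0.92 by plate) and with Lef1 1.03 (1.01, 0.97 and 1.11), on both sides of 1. Its share differed little between cells with and without Lef1, at 76.8% (63.6 to 87) and 74% (68.2 to 79.3). A gene found in most cells leaves little room for a ratio above 1.

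**Figure D4:**
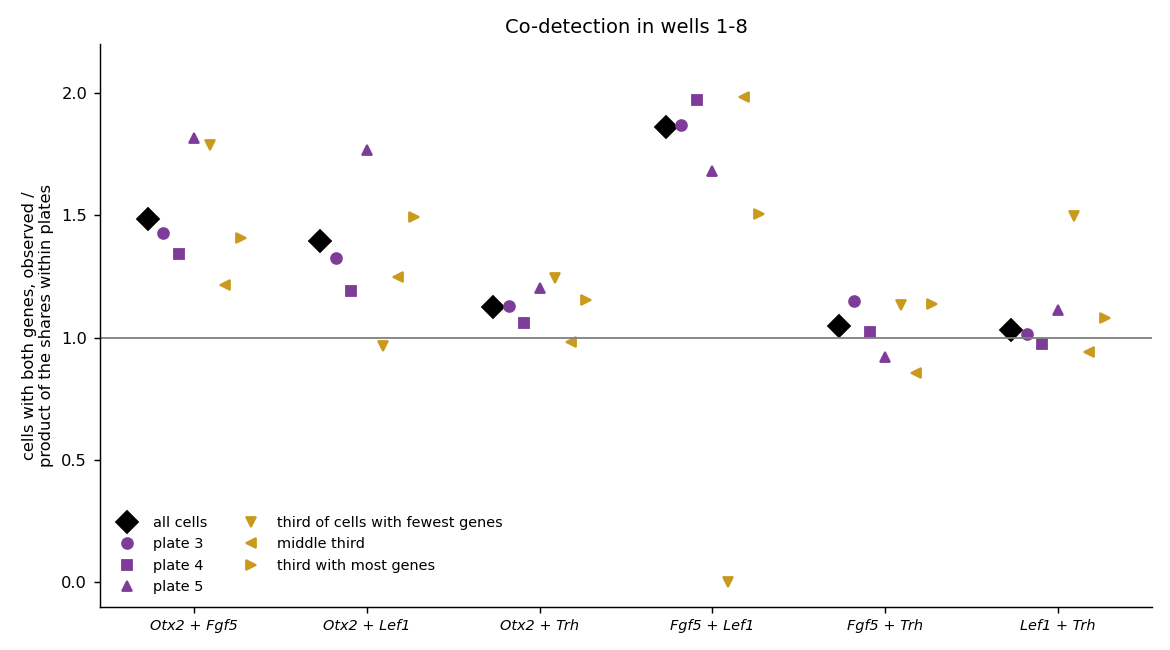
Cells of the Epi wells with both genes of a pair, divided by the number given by the product of the 2 shares within each plate, for all cells, for plates 3, 4 and 5 and for 3 classes of genes detected. The 3 pairs among Otx2, Fgf5 and Lef1 lie at 1.40 to 1.86 over all cells and the pairs of Trh at 1.03 to 1.12; the point at 0 stands for 0 cells where 0.56 were calculated.

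Naive genes were lower and formative genes higher in Epi cells that held Fgf5. All 12 naive genes had a lower mean in the 51 cells with Fgf5 than in those without, 10 of them on each of the 3 plates, where 16.6% of the 9730 genes found in at least 10% of Epi cells did so. Klf4 averaged 0.00814 TP10k with Fgf5 and 0.164 without, Zfp42 (Rex1) 1.99 and 4.95, and Nanog 2.43 and 4.11. Esrrb was found in 52.9% of cells with Fgf5 and 88.2% of cells without, and by share of cells 8 of 12 naive genes were lower in each class of genes detected, where 14.2% of all genes were. Cells with Fgf5 had more genes detected, a median of 5410 against 4747, and the part of this in the result was not tested beyond those classes. Of 17 formative genes found in at least 10% of Epi cells, 10 were higher on each plate and 1 lower, where 13.1% of genes were higher. Dnmt3b averaged 2.57 TP10k with Fgf5 and 0.821 without, and Sall2, a zinc finger factor, 0.165 and 0.0434. By share of cells 7 of these genes were higher in each class, where 9.64% of all genes were. The gene lower on each plate was Etv4, at 0.541 against 0.659.

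Lef1 gave a like picture. Of 12 naive genes 9 were lower on each plate in the 56 cells with Lef1, where 15.3% of genes were, and of 17 formative genes 8 were higher, where 12.3% of genes were, and 1 lower. By share of cells in each class of genes detected, 6 naive genes were lower and 8 formative genes higher, where 13% and 10.8% of all genes were. Nanog averaged 2.48 TP10k with Lef1 and 4.13 without, Tbx3 0.152 and 0.276, and Grhl2 0.374 and 0.125. Tcf15, a helix-loop-helix factor of the early epiblast, averaged 0.482 with Lef1 and 0.163 without. For Otx2, 5 naive genes were lower on each plate (15% of all genes) and 10 formative genes higher (14.3% of all genes). By share in each class, 7 naive genes were lower and 8 formative genes higher, where 11.4% and 16.6% of all genes were. Fgf15 averaged 0.908 TP10k with Otx2 and 0.264 without, Zic2 0.0925 and 0.0392, and Dnmt3a 4.11 and 2.36. Dppa3, which marks both naive cells and primordial germ cells (PGCs), averaged 1.07 with Otx2 and 2.99 without, and was lower on each plate. Nanos3, a PGC gene, was found in 5.36% of cells with Otx2 (2.48 to 9.93) and 13% without (8.02 to 19.6). Of 4 listed PGC genes, Dppa3 among them, 3 were found in at least 10% of Epi cells. Of these 3, 2 were lower and 0 higher on each plate, and over all cells 1 had a higher mean with Otx2. By share in each class only 1 was lower, so no direction is read for the PGC genes as a set. Differences for Klf2, Nanog and Tbx3 changed sign between plates for Otx2.

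Cells with Trh were compared in the same way. Of the 12 naive genes 3 were lower on each plate and 3 higher, among them Nr0b1, at 3.09 TP10k with Trh and 1.82 without. Of 17 formative genes 3 were higher, among them Fgf15 at 0.716 and 0.292, and 0 lower, where 16.9% and 11.8% of all genes were. By share in each class of genes detected, 5 naive genes were higher and 1 lower, and 6 formative genes higher and 2 lower, where 18.3% of all genes were higher and 9.42% lower. Dppa3 was again lower, at 1.56 with Trh and 3.14 without. Whether Trh differs in this from the other 3 members was not tested.

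**Figure D5:**
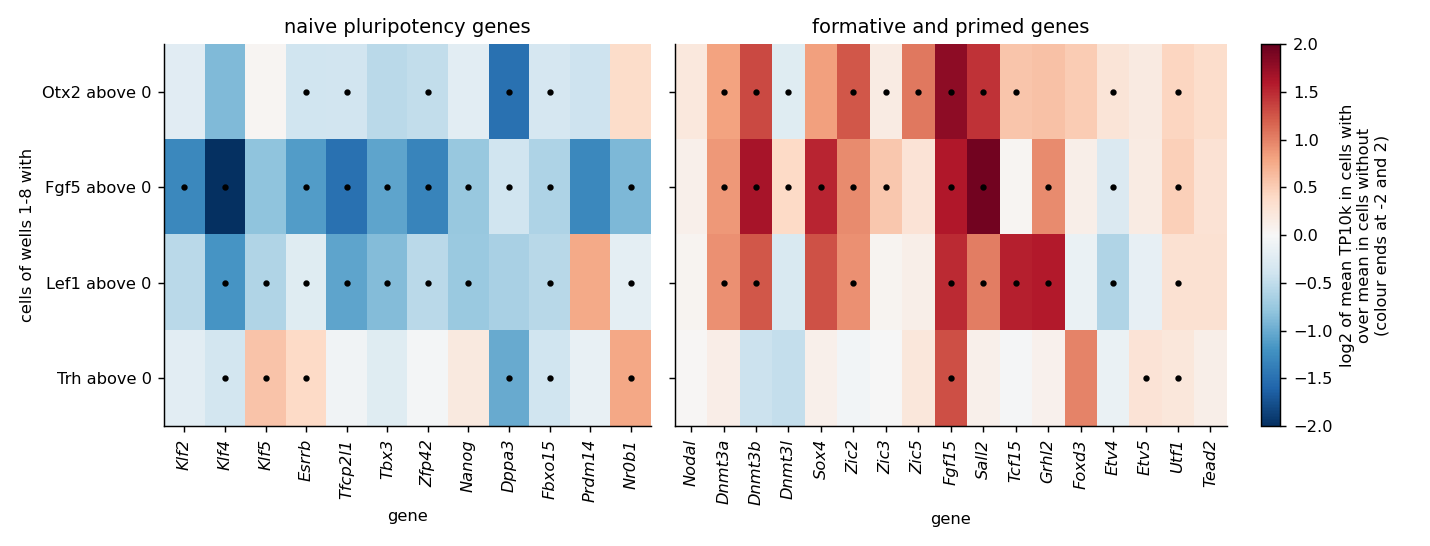
Log2 of mean TP10k in Epi cells with a member above 0 over the mean in Epi cells without it, for naive genes and for formative and primed genes found in at least 10% of these cells; colours end at -2 and 2. A dot marks the same direction on plates 3, 4 and 5, with 10 of 12 naive genes dotted blue for Fgf5, 9 for Lef1, 5 for Otx2 and 3 for Trh.

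Genes most like each member were ranked by Pearson's r, as a description. Over 12 profiles, the mean ln(TP10k + 1) of 3 blocks of wells on 3 plates and of 3 cultures, which share plates and depth, Otx2 was most like Gfpt2 (r = 0.99), Phc1 and Mymx. Lef1 was most like Fgf15 (r = 0.99), Myrf and Bcl11a, Trh most like Map7d3 (r = 1.0), Runx1t1 and Dtna, and Fgf5 most like Cenpt (r = 0.94), Atf7ip and Dnmt3a. Over the cells of the Epi wells, centred by plate, all coefficients were low. The highest were Enpp2, Prps2 and Dnmt3a for Otx2 (r = 0.36, 0.36 and 0.34), Car4, Dnmt3b and Pim2 for Fgf5 (0.45, 0.39 and 0.37), Fgf15 and Dnmt3b for Lef1 (0.32 and 0.27) and Chchd10 and Fgf15 for Trh (0.36 and 0.35). Fgf15 was among the 5 genes most like Otx2, Lef1 and Trh in these cells. Of the members, Trh was itself among the 5 genes most like Otx2 (r = 0.31), ahead of Fgf5 (0.24) and Lef1 (0.23). Car4, a carbonic anhydrase, averaged 1.19 TP10k in the Epi wells and 6.57 in the VE wells.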

How the data were processed

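Single cells were sorted into plates and prepared by SMART-seq2. The authors demultiplexed reads with bcl2fastq 2.20, quantified transcripts with kallisto against GRCm38 and deposited 1 matrix of TPM with mitochondrial, ribosomal and pseudogenes filtered; a few names marked as pseudogenes remain. The deposited TPM were used without the study's cell annotation. Of 1931 wells, 39 had no values, and no 2 wells held identical values. A well was retained when 2500 genes or more had a value above 0, which left 314 cells of 3D columns 1-8, 315 of columns 9-16, 353 of columns 17-24, 142 ESCs, 141 iTSCs and 141 iXEN cells. TPM were scaled to 10000 per cell (TP10k).

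The 3D pool and each 2D culture are 1 sample each, so no test was run. Group means, shares with exact Clopper-Pearson intervals and log2 ratios of means were calculated over all 20999 genes, with plates 3, 4 and 5 as technical splits. Calls needed a ratio of 2 and the same direction on each plate, among genes found in 10% of cells of either group. The calculation of ratios and calls was checked on measured Epi cells split at random, with large changes planted in genes found in many cells. Genes found in as few cells as Fgf5 and Lef1, and smaller ratios, were not covered by that check. Co-detection was compared with the product of shares within plates. Named genes came from fixed lists of genes around each member. For each list the counts were given with up to 4 or 5 examples, and genes most like a member were the 5 with the highest r. The members and lists were chosen with earlier results of these data known. A listed gene without a row is not analysed here. Cells deposited with fewer genes were left out, and doublets were not called. Promoters were taken from RefSeq tables (GRCm38.p6), and the motif words were chosen after the windows had been read. Analyses used Python, NumPy, SciPy and pandas.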

Additional observations from a re-analysis of the deposited data

How the results depend on the processing

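Of 160 log2 ratios recalculated under the alternatives, 48 kept their direction but moved by more than the SD of the 3 plates, 1 changed sign and the others stayed within that SD. Using TPM as deposited or a minimum of 4000 genes left each ratio of the Epi wells to the VE wells, the ExE wells or ESCs within that SD. Differences of mean log2(TP10k + 1) and of mean log2(TP10k + 0.1) are on a compressed scale, which is why they are smaller. Otx2 then gave 0.56 and 1.72 over the ExE wells and 0.093 and -0.20 over ESCs, the latter a reversal whose cause was not tested. Fgf5 gave 0.074 and 0.22 over the VE wells, 0.11 and 0.37 over the ExE wells, and 0.14 and 0.46 over ESCs. Lef1 gave 0.11 and 0.40, 0.10 and 0.36, and 0.11 and 0.36 in the same order. Trh gave 2.00 over the VE wells with the larger addend, and 1.73 and 3.05 over ESCs.

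With no minimum of genes the log2 ratios to ESCs were 0.38 for Otx2, 5.46 for Fgf5 and 4.67 for Lef1, and co-detection rose to 1.76 for Otx2 with Fgf5, 1.31 for Otx2 with Trh, 2.26 for Fgf5 with Lef1, 1.24 for Fgf5 with Trh and 1.22 for Lef1 with Trh. In cells with 6000 to 9000 genes, only 33 of them Epi cells, Fgf5 gave 2.63 over the VE wells and 4.17 over ESCs, the latter on 3 ESCs with Fgf5, Lef1 3.71 over the ExE wells and 5.88 over ESCs, and Trh 5.12 over ESCs. Both Fgf5 and Lef1 then had a co-detection ratio of 1.19 with Trh. Without cells whose markers went against their wells, Fgf5 and Lef1 gave 7.80 and 4.09 over the ExE wells and Trh 12.1 over the VE wells, where 3 cells with Fgf5 and 2 with Trh remained. With detection set at 10 TPM, Fgf5 with Lef1 gave 2.06. Leaving out each plate in turn gave 6.40 to 11.7 for Trh over the VE wells, each on 2 or 3 cells with Trh there and the highest without plate 4, 0.98 to 1.09 for Fgf5 with Trh and 0.99 to 1.06 for Lef1 with Trh, so the last 2 pairs fell on both sides of 1. The cause was not tested for any of these.

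A fold of 4 in place of 2 called 6.98% of genes higher than in the VE wells, 3.7% than in the ExE wells and 2.87% than in ESCs, with 3.33% lower than in ESCs, and Fgf5 then missed the call against the VE and ExE wells. With no filter on genes 2673 were called higher than in the VE wells instead of 1739, and 1730 than in the ExE wells instead of 978. Ratios to groups with 1 to 3 cells above 0 among all cells, namely Otx2 in the VE wells and iXEN cells and Trh in the ExE wells and iTSCs, are not given and were not followed under the alternatives. No paired analysis was possible because each condition is 1 sample. Read depth is unknown from TPM, so a gene at 0 in a cell may lie below detection.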
